A study of Mus musculus with 167 samples.

Results

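The 10 genes described here serve protein folding in the endoplasmic reticulum (ER) and the unfolded protein response: Hspa5, Pdia4, Hyou1, Sdf2l1, Creld2, Dnajb9, Herpud1, Xbp1, Atf4 and Ddit3. They were chosen by name from knowledge of the pathway, with earlier results of these data known. Each was read from the probe set annotated to that gene alone with the highest mean over all arrays. All 10 were measured and all 10 passed the filter on dim genes, out of 18194 genes measured and 12623 tested. The livers came from 167 male C57BL/6 mice of 9 to 11 weeks at the start, hybridised singly to Affymetrix GeneChips. The mice were wild type, knock-out for both CAR and PXR (CARKO-PXRKO), or humanized (CARh-PXRh), with the human receptors. CAR (the constitutive androstane receptor, gene Nr1i3) and PXR (the pregnane X receptor, gene Nr1i2) are nuclear receptors that switch on drug metabolism genes when drugs enter the liver.

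Each genotype had a control arm and an arm given phenobarbital, a barbiturate that activates CAR, at 0.05% (wt/vol) in the drinking water. The animals were killed after 1, 7, 14, 28 or 91 days of the 13-week dosing, or on day 119, when they had recovered for 4 weeks without the drug. Of the 36 groups of genotype, treatment and day, each held 3 to 5 animals. Food and water were free to all. Over the 5 dosing days the arms held 22 control and 24 treated wild-type livers, 22 and 24 knock-out livers, and 24 and 23 humanized livers. The labels say that the receptors are missing or human, but do not give the promoter behind the human genes or the number of founder lines, and the treatment text names lower doses too without giving a dose for each sample. Whole pieces of liver were powdered, so all cell types of the organ enter a value, and fewer cells of a type and less RNA per cell cannot be told apart.

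As background, proteins bound for secretion fold in the ER with the help of chaperones such as Hspa5 (BiP) and of disulfide isomerases such as Pdia4. When unfolded proteins accumulate, the sensors Ire1, Perk and Atf6 act: Ire1 splices Xbp1 mRNA, Perk raises translation of Atf4 and through it Ddit3 (CHOP), and Atf6 is cut to release a transcription factor. Together these raise the chaperones and the machinery of ER-associated degradation, to which Herpud1 and Dnajb9 belong. Hepatocytes secrete most plasma proteins, and phenobarbital is known to enlarge their smooth ER. The arrays measured total mRNA, and neither Xbp1 splicing nor Atf4 translation.

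As background, promoters of this pathway can hold DNA elements through which the sensors act, and 3 of the 9 promoters searched here held a match. The stretches shown are those of the promoters with a match, which belong to Hspa5, Creld2 and Herpud1. Any part of these elements in the levels of the 3 genes was not tested. RefSeq (GRCm38.p6) gave a promoter of 250 bases before to 50 bases after the start for 9 of the 10 genes. Both strands were searched for the ER stress element ERSE (CCAAT, any 9 bases and CCACG), ERSE-II (ATTGG, any 1 base and CCACG), the unfolded protein response elements TGACGTGG and TGACGTGA, and the amino acid response core TTGCATCA. Capitals mark the matches, and each stretch is written 5′ to 3′ on the plus strand, on which all 3 genes lie.
Hspa5, chr2:34771923-34772053: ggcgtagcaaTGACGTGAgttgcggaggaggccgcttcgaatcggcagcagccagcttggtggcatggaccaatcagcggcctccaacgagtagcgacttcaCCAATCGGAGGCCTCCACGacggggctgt
Creld2, chr15:88819510-88819548: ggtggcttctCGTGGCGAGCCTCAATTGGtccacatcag
Herpud1, chr8:94386307-94386397: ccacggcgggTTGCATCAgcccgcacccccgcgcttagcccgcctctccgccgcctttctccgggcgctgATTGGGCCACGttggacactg

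Counted from the start of the gene, with negative positions before it, the Hspa5 promoter held TGACGTGA from −157 to −150 and an ERSE from −65 to −47. The ERSE of Creld2 lay on the minus strand, from −126 to −108. The Herpud1 promoter held no ERSE but an ERSE-II, from −52 to −42, and TTGCATCA from −112 to −105. Of all 32851 promoters of this length, 0.119% held an ERSE, 0.0365% an ERSE-II, 0.441% TGACGTGA, 0.676% TGACGTGG and 0.895% TTGCATCA. The stretches of the other 6 promoters held none of these exact letters, and a match describes the sequence only.

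The deposited log2 values had array medians between 5.146 and 5.231. Nr1i3 lay between 7.74 and 8.91 in wild-type livers and at no more than 5.38 in knock-out and 5.46 in humanized livers, and the lowest wild-type Nr1i2 value was 6.91 against at most 4.19 in the other genotypes. Hepatocyte markers averaged between 13.5 and 13.9 on every array. Pancreas acinar markers averaged over 1 log2 unit above their median of 4.97 in 29 samples, 15 control and 14 treated, with a highest mean of 11.30, and results that rest on those samples are given with and without them. Arrays of 2 knock-out treated animals, 4019 (day 28) and 4024 (day 91), were near identical and were kept as labelled, and those of animals 6026 and 6030 (humanized, treated, day 119) were near identical and averaged as 1 of 166 samples. Cyp2b10, the classical target of CAR, was 6.50 log2 units higher over the dosing days in wild-type and 4.71 higher in humanized livers (both called).

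Under phenobarbital the 10 genes were not called together. Herpud1, which helps hand misfolded proteins to degradation, fell in all 3 genotypes, and it was the only member called in all 3. Pdia4 and Hyou1 rose slightly in wild-type livers, Hyou1 also in knock-out livers, and Xbp1 fell slightly in humanized livers. Each of the Pdia4 and Hyou1 calls was lost under at least 1 of 9 alternative settings, the knock-out Hyou1 call under 5, as given below. Hspa5, the main ER chaperone, and Ddit3, Dnajb9, Sdf2l1 and Creld2 were called in no genotype and on no dosing day. A gene is called here when the adjusted p of limma's moderated test (Benjamini-Hochberg over all genes tested) is under 0.05.

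In the mean over the 5 dosing days, 3 of 10 members were called in wild-type livers, where 31.5% of all genes tested were. Among knock-out livers 2 of 10 were called against 19.6%, and among humanized livers 2 of 10 against 32.4%. These shares of the members lie near or below those of all genes. By day, wild type had 1 member called on day 1 (12% of all genes), 0 on day 7 (2.72%), 2 on day 14 (8.79%), 1 on day 28 (5.55%) and 0 on day 91 (2.13%). Knock-out livers had 0 on days 1, 7, 14 and 91 (8.07%, 0.0158%, 0.325% and 3.45%) and 1 on day 28 (5.16%). The humanized livers had 1 on day 1 (11.7%), 0 on day 7 (4.84%), 1 on day 14 (11.9%), 2 on day 28 (7.7%) and 0 on day 91 (2.19%). Where 0 were called with limma, an unadjusted p under 0.05 was reached by 1 member in wild type on days 7 and 91 (Herpud1), by 2, 0, 5 and 1 in the knock-out on days 1, 7, 14 and 91, and by 3 and 0 in humanized livers on days 7 and 91. The shares of all genes above are at the adjusted threshold and do not compare with these unadjusted counts. Members also varied together within groups, so they do not count separately.

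**Figure D1:**
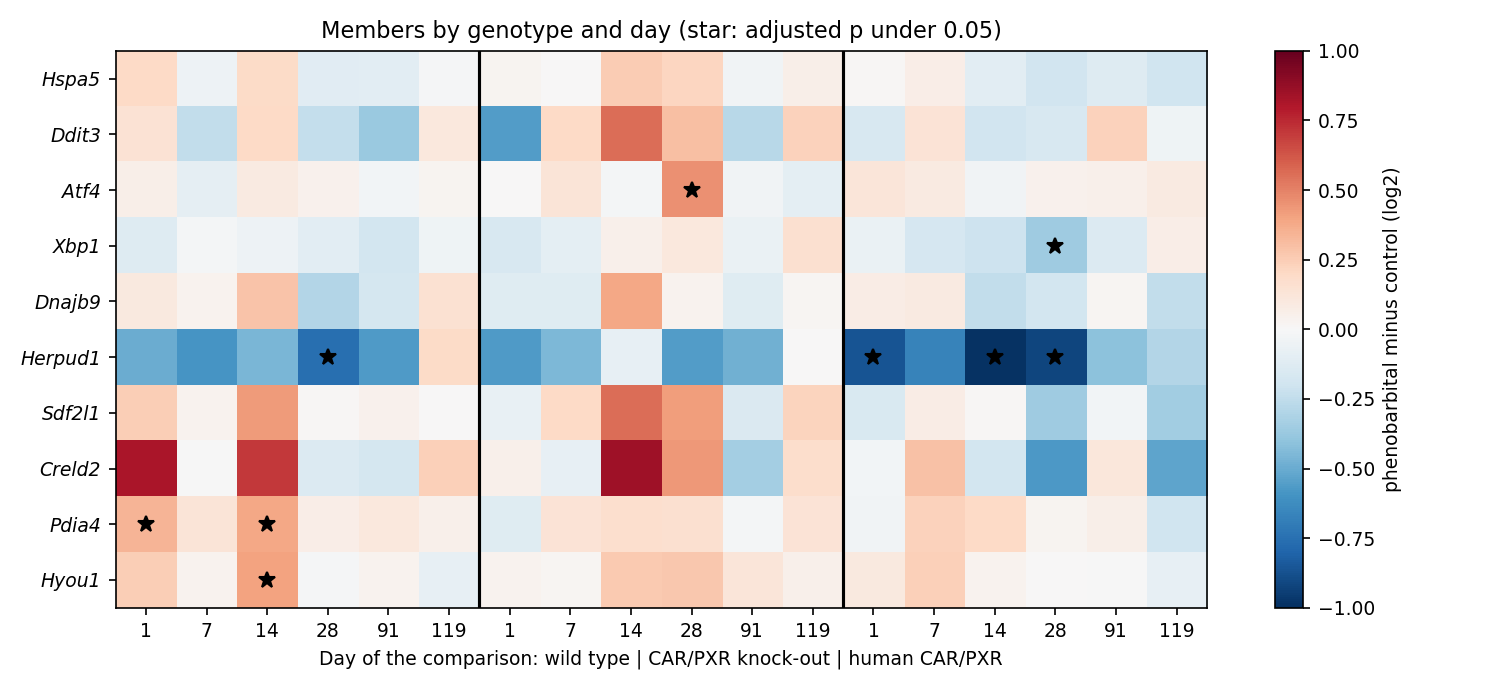
Phenobarbital minus control (log2, colour) for the 10 members (rows) on each day in the 3 genotypes (columns), with a star where adjusted p is under 0.05. The Herpud1 row is below 0 on 15 of 15 dosing-day comparisons and carries 4 of the stars, while the rows of Hspa5, Ddit3, Dnajb9, Sdf2l1 and Creld2 carry none.

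Herpud1 is an ER membrane protein that binds the Hrd1 ubiquitin ligase complex, and its mRNA is a standard readout of the unfolded protein response. Over the dosing days its log2 level in wild-type controls had a lowest, median and highest value of 10.67, 11.18 and 11.70, against 10.18, 10.52 and 11.71 in treated wild-type livers. In knock-out livers these were 10.65, 11.47 and 12.05 in controls and 10.40, 11.04 and 11.71 under phenobarbital. In humanized livers they were 10.94, 11.58 and 12.42 in controls and 9.95, 10.84 and 11.82 under phenobarbital. The treated median thus lay below the control median in each genotype, while the ranges overlapped once all days were pooled.

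The dosing-day mean of Herpud1 fell by 0.57 ± 0.10 on the log2 scale (standard error, adjusted p = 1.50e-06) in wild type, to 0.672 of the control level. It fell by 0.43 ± 0.10 (adjusted p = 0.000925) in the knock-out, to 0.743, and by 0.77 ± 0.10 (adjusted p = 1.00e-10) in humanized livers, to 0.587. Of all genes tested, 581 (4.6%) were called lower in all 3 genotypes and 284 (2.25%) higher in all 3, and Herpud1 had the 12th largest mean fall among the 581. Its difference was below 0 in all 15 comparisons of a genotype and a dosing day, which held for 379 genes (3%). A second probe set for Herpud1 followed the first with a Pearson r of 0.982 over the arrays. These 3 calls held under all 9 alternative settings and with any single animal left out. Of 9 hepatocyte markers 5 were called lower in wild type, 1 in the knock-out (with 1 higher) and 5 in humanized livers, with medians of −0.03, −0.01 and −0.10 and means per liver between 13.5 and 13.9 in every arm, and their part in the Herpud1 fall was not tested. Of 10 stellate cell markers 5 were called lower in wild type, 0 in the knock-out and 3 in humanized livers (at limma's unadjusted p under 0.05, 0 lower and 1 higher in the knock-out). Of all genes tested, 19.7%, 11% and 17.5% were called lower in wild type, knock-out and humanized livers. Lrat, which esterifies retinol in stellate cells, fell by 0.50 in wild type and 0.77 in humanized livers, and the matrix protein Dcn by 0.22 and 0.24. The mean of the stellate list per liver over all days ran from 7.72 to 8.31 in wild-type controls and 7.69 to 8.07 in treated livers, from 7.72 to 8.15 and 7.78 to 8.17 in the knock-out, and from 7.60 to 8.19 and 7.58 to 8.08 in humanized livers, and its part in the Herpud1 fall was not tested.

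On single days, the Herpud1 difference was called in wild type on day 28. The 5 wild-type controls of that day stood at 10.95, 11.21, 11.34, 11.40 and 11.42, and the 5 treated livers at 10.27, 10.29, 10.48, 10.62 and 10.87. Every treated liver lay below every control, and the difference was −0.76 (adjusted p = 0.0156). The call was lost without animal 2017 or 2019 (adjusted p = 0.0571 and 0.0566). On the other days the wild-type differences were −0.50, −0.59, −0.46 and −0.57 on days 1, 7, 14 and 91, none of them called, with no overlap on day 1 either. Arms without overlap, in either direction, were found for 8.41% of all genes on day 1 and 5.81% on day 28.

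In humanized livers Herpud1 was called on days 1, 14 and 28. On day 1 the controls stood at 11.33, 11.52, 11.67, 11.68 and 12.36 and the treated livers at 10.29, 10.40, 10.84, 11.23 and 11.47, a difference of −0.86 (adjusted p = 0.00270). The day 1 ranges met only at the highest treated liver, which lay above the lowest control. On day 14 the controls stood at 11.27, 11.36, 11.92, 12.01 and 12.42 and the treated livers at 10.48, 10.57, 10.71, 11.06 and 11.23, with no overlap and a difference of −0.99 (adjusted p = 0.000416). On day 28 the controls stood at 11.45, 11.64, 11.75 and 12.03 and the treated livers at 9.95, 10.44, 10.74, 11.04 and 11.82, a difference of −0.92 (adjusted p = 0.00325), and 1 treated liver reached the control range. The differences on days 7 and 91 were −0.66 (adjusted p = 0.0710) and −0.41 (adjusted p = 0.513), the former with no overlap. Arms without overlap, in either direction, were found for 7.97% of all genes on day 7 and 7.8% on day 14. Fitted on the arrays of the compared groups alone, days 1 and 28 were no longer called (adjusted p = 0.0774 and 0.142) and day 7 was (adjusted p = 0.0222), and without animal 6017 day 28 stood at −0.71 (adjusted p = 0.0504).

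In knock-out livers no single day was called for Herpud1. The differences were −0.57 on day 1 (adjusted p = 0.0816), −0.45 on day 7, −0.08 on day 14, −0.56 on day 28 and −0.48 on day 91. On day 28 the controls stood at 11.10, 11.27, 11.50, 11.76 and 12.05 and the treated livers at 10.87, 10.88, 10.92, 11.07 and 11.15. On day 91 every treated liver (10.82 to 11.29) lay below every control (11.38 to 11.83), and 3.55% of all genes had arms without overlap, in either direction. Day 14 was the dosing day with the smallest knock-out difference, with controls from 11.22 to 11.72 and treated livers from 11.09 to 11.58.

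**Figure D2:**
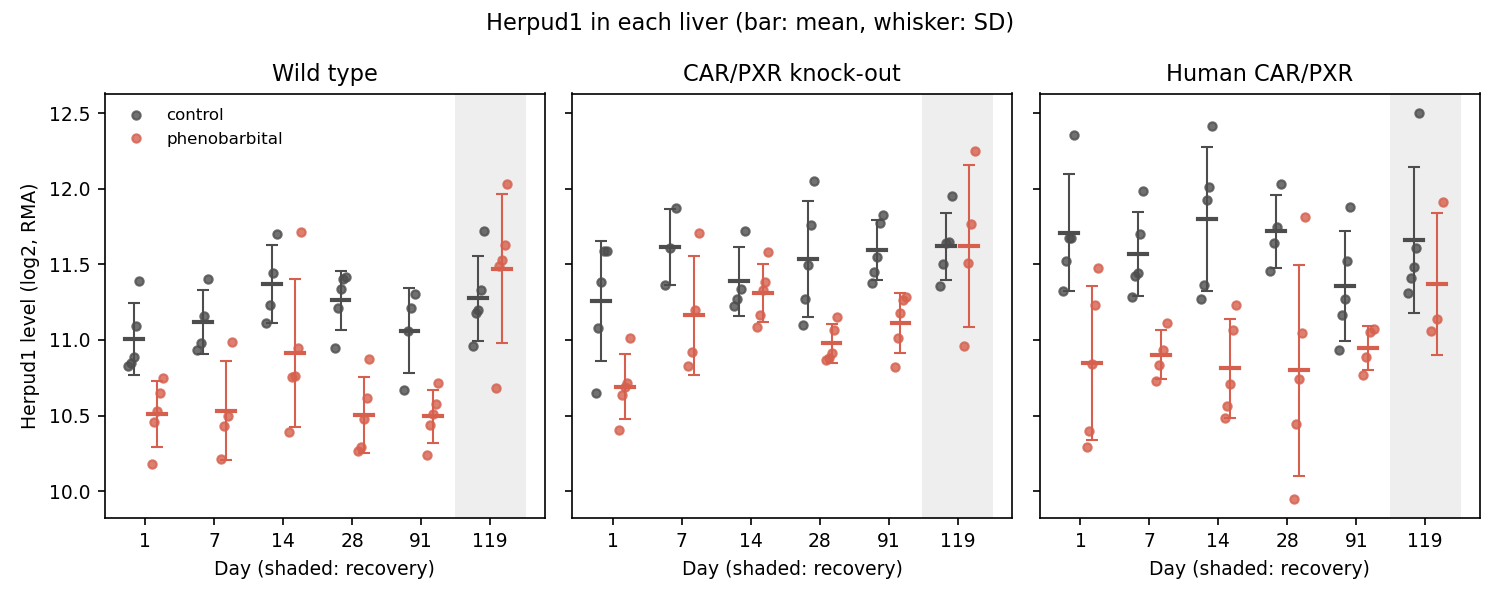
Herpud1 log2 level (RMA) in each liver by day, with control and phenobarbital points and the group mean ± SD, in wild type, knock-out and humanized mice; the shaded day 119 is recovery. The treated mean sits below the control mean on each dosing day in all 3 panels, by least in the knock-out on day 14 (−0.08). Single points of the arms overlap on several dosing days, and on day 119 the treated and control points overlap.

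The size of the Herpud1 fall was not called different between genotypes. The knock-out minus wild-type difference of the dosing-day effect was 0.14 (95% interval −0.14 to 0.43), humanized minus wild type was −0.20 (−0.47 to 0.08), and humanized minus knock-out was −0.34 (−0.62 to −0.06, adjusted p = 0.117). None of the 10 members was called in these 3 contrasts, in which 13.4%, 1.88% and 10.1% of all genes tested were, while 1 (Pdia4), 0 and 3 (Hspa5, Xbp1 and Herpud1) had an unadjusted p under 0.05 with limma. Day by day, no member was called either between knock-out and wild type (1.26%, 0.665%, 1.28%, 3.75%, 0.729% and 0.0317% of all genes on days 1, 7, 14, 28, 91 and 119) or between humanized and wild type (0.111%, 0.0951%, 0.317%, 0.135%, 0.103% and 0%), with limma's unadjusted p under 0.05 for at most 2 members on a day. In the knock-out, where Herpud1 fell, Cyp2b10 was 0.17 ± 0.090 log2 units higher under phenobarbital (adjusted p = 0.164), while the readouts Gstm3 (0.62, adjusted p = 1.18e-08), a glutathione transferase, and Cyp3a11 (0.05, adjusted p = 0.0145) rose there. The knock-out minus wild-type difference of the Cyp2b10 effect was −6.33.

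After 4 weeks without phenobarbital no member was called between the arms in any genotype, nor had any an unadjusted p under 0.05 with limma, and 0.0238%, 0.111% and 0.214% of all genes tested were called on day 119 in wild type, knock-out and humanized livers. Wild-type Herpud1 on day 119 stood at 10.96, 11.18, 11.20, 11.33 and 11.72 in controls and 10.68, 11.49, 11.53, 11.63 and 12.03 in livers that had been treated. Of these, 4 of 5 formerly treated livers lay above the control median, and 1, animal 2028, lay below every control. The Herpud1 differences on that day were 0.19, 0.00 and −0.29 in the 3 genotypes. The change from the dosing-day mean to day 119 was 0.77 ± 0.236 in wild type (adjusted p = 0.0441, 3.69% of all genes called), 0.43 ± 0.248 in the knock-out (0.341% of all genes called) and 0.48 ± 0.266 in humanized livers (10.1% of all genes called), of which only the first passed. That wild-type call did not hold under 4 of 9 alternatives or without any 1 of 18 animals (0.63 to 0.96 over all leave-outs), and without the samples high in acinar markers the value was 0.51 (adjusted p = 0.456). Between day 1 and day 91 of dosing no member's effect was called as changing with limma, where 0.436%, 0.665% and 1.74% of all genes were, and only Hspa5 in wild type had an unadjusted p under 0.05.

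Pdia4, a disulfide isomerase of the ER lumen, rose in wild-type livers. On day 1 the wild-type controls stood at 9.79, 9.86, 10.06, 10.07 and 10.13 and the treated livers at 10.20, 10.24, 10.36, 10.37 and 10.45. On day 14 the controls stood at 9.94, 10.03, 10.05 and 10.10 and the treated livers at 10.36, 10.38, 10.39, 10.46 and 10.48. On both days every treated liver lay above every control. Arms without overlap, in either direction, were found for 8.41% of all genes on day 1 and 8.98% on day 14. The Pdia4 differences were 0.34 on day 1 (adjusted p = 0.0195) and 0.39 on day 14 (adjusted p = 0.0172), and the dosing-day mean was 0.21 ± 0.050 (adjusted p = 0.000482). The dosing-day means were 0.06 in the knock-out and 0.10 in humanized livers, neither called, and the knock-out minus wild-type difference was −0.14 (95% interval −0.28 to −0.00, adjusted p = 0.190).

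Hyou1, the large chaperone that acts as exchange factor for Hspa5, showed its largest difference in wild type on day 14. The controls stood at 9.81, 9.83, 9.92 and 9.96 and the treated livers at 10.12, 10.22, 10.22, 10.35 and 10.50, with no overlap and a difference of 0.40 ± 0.119 (adjusted p = 0.0203). On that day 8.98% of all genes had arms without overlap, in either direction. The dosing-day mean of Hyou1 was 0.14 ± 0.053 in wild type (adjusted p = 0.0318), 0.14 ± 0.053 in the knock-out (adjusted p = 0.0483) and 0.08 in humanized livers (adjusted p = 0.283). The Hyou1 difference was above 0 in 13 of 15 comparisons and that of Pdia4 in 12 of 15. Leaving out single animals ended the Pdia4 call on day 1 (without 1001, 1002 or 2002, at no less than 0.29 and adjusted p up to 0.0799) and on day 14 (without 1012, adjusted p = 0.0553), the Hyou1 call on day 14 (without 1011, 1012 or 2012, at no less than 0.35 and adjusted p up to 0.0773) and its wild-type mean (without 1008, 1017, 1023, 2002, 2007, 2012 or 2022, at no less than 0.13 and adjusted p up to 0.0596).

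Pancreas acinar markers moved beside these wild-type rises. On day 1 their mean per liver was 5.19, 7.65 and 9.17 (lowest, median and highest) in controls and 4.88, 5.02 and 8.26 in treated livers, and on day 14 it was 4.93, 6.79 and 8.69 against 5.05, 5.25 and 7.24. The median difference over the 18 tested markers was −1.63 on day 1 and −1.13 on day 14, and with limma none of the 18 was called, while 13 on day 1 and 0 on day 14 were lower at an unadjusted p under 0.05. Without the samples high in these markers, which left 1 of 5 day 1 controls and 2 of 4 day 14 controls, Pdia4 stood at 0.26 on day 1 (adjusted p = 0.772), 0.36 on day 14 (adjusted p = 0.162) and 0.16 in the mean (adjusted p = 0.0654), and Hyou1 at 0.29 on day 14 (adjusted p = 0.346) and 0.14 in the mean (adjusted p = 0.163). The lone day 1 control is assumed in that fit to vary like the other groups, so its p says little of the day 1 call. With the acinar mean as a covariate instead, the wild-type calls of Pdia4 on days 1 and 14 and in the mean, and those of Hyou1 on day 14 and in the mean, held. With the mean of all probe sets, which adds 1 for Pdia4 that lay above the array median on no array, Pdia4 stood at 0.22 on day 1 (adjusted p = 0.0876) and 0.24 on day 14 (adjusted p = 0.0783) and the wild-type Hyou1 mean at 0.12 (adjusted p = 0.0915). The knock-out Hyou1 call was lost under 5 of 9 alternatives, down to 0.03 with the mean of all probe sets (adjusted p = 0.764).

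Xbp1, whose spliced mRNA codes for the transcription factor downstream of Ire1, fell in humanized livers. On day 28 the humanized controls stood at 12.21, 12.40, 12.42 and 12.46 and the treated livers at 11.81, 11.88, 11.95, 12.21 and 12.26. Of the 5 treated livers, 3 lay below every control. The day 28 difference was −0.35 ± 0.097 (adjusted p = 0.00961) and the dosing-day mean was −0.19 ± 0.042 (adjusted p = 0.000196). On day 7 all treated livers (12.19 to 12.34) lay below all controls (12.34 to 12.52), with a difference of −0.16 that was not called. On that day 7.97% of all genes had arms without overlap, in either direction. Plasma cells also express Xbp1, and of 7 tested B and plasma cell genes only Ighm was called (1.64 higher in wild type and 1.47 in humanized livers), with list means between 5.11 and 6.44 in humanized controls and 5.18 and 5.55 in treated humanized livers over all days; their part was not tested. The means in wild type (−0.10, adjusted p = 0.0750) and the knock-out (−0.03) were not called, and Xbp1 was below 0 in 13 of 15 comparisons. The day 28 call was lost in a fit limited to the groups compared (adjusted p = 0.101) and without animal 6016 (adjusted p = 0.0576).

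Atf4, the transcription factor of the Perk arm, rose on 1 occasion, in knock-out livers on day 28. The controls stood at 9.85, 9.97, 10.07, 10.10 and 10.20 and the treated livers at 10.42, 10.45, 10.49, 10.53 and 10.58. Every treated liver lay above every control, and the difference was 0.46 ± 0.098 (adjusted p = 0.00158). Arms without overlap, in either direction, were found for 4.59% of all genes there. Averaged over the 3 Atf4 probe sets, the difference was 0.22 (adjusted p = 0.0876 with limma). Of these sets 1 lay above the array median on no array. Another, with a mean of 9.35, lay above it on all 167 arrays but had a Pearson r of only 0.514 with the set used. The difference in that set alone was not tested. The dosing-day means of Atf4 were 0.01, 0.11 and 0.05 in wild type, knock-out and humanized livers.

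Ddit3, the proapoptotic factor CHOP induced downstream of Atf4, was called in no dosing comparison. Its dosing-day means were −0.10, 0.05 and −0.03, but its knock-out differences ran in both directions. On day 1 the knock-out controls stood at 6.80, 7.04, 7.20, 7.38 and 8.39 and the treated livers at 6.45, 6.70, 6.73, 7.05 and 7.08, a difference of −0.56 (adjusted p = 0.0845). Control animal 3001 decided the size of that difference, which was −0.30 without it (adjusted p = 0.508), and it was −0.70 without control animal 3005 (adjusted p = 0.0345). On day 14 the controls stood at 6.97, 6.99, 7.06 and 7.07 and the treated livers at 7.34, 7.41, 7.43, 7.74 and 7.99, a difference of 0.56 (adjusted p = 0.280) with no overlap. In wild type on day 91 every treated liver (6.78 to 7.20) lay below every control (7.32 to 7.49), with a difference of −0.37 (adjusted p = 0.472). Arms without overlap, in either direction, were found for 4.03% of all genes in the knock-out on day 14 and 6.58% in wild type on day 91. With the mean of both Ddit3 probe sets the knock-out day 1 difference was −0.64 (adjusted p = 0.0371).

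Hspa5 had nearly the same range in both wild-type arms. It was read from a very bright probe set, with a mean of 13.46 and an SD of 0.167 over all arrays. A dimmer set, with a mean of 12.54 and a Pearson r of 0.945 with the first, had an SD of 0.216. Over the dosing days the lowest, median and highest log2 levels were 13.14, 13.43 and 13.76 in wild-type controls and 13.09, 13.43 and 13.81 in treated livers. The dosing-day means were 0.02 in wild type (95% interval −0.07 to 0.11), 0.10 in the knock-out (0.0046 to 0.19, adjusted p = 0.134) and −0.07 in humanized livers (−0.16 to 0.02, adjusted p = 0.246). The largest difference was 0.26 in the knock-out on day 14, where the controls stood at 13.18, 13.35, 13.39 and 13.47 and the treated livers at 13.54, 13.58, 13.58, 13.60 and 13.73 (adjusted p = 0.271). On that day the treated livers lay above every control for 4 members, Hspa5, Ddit3, Sdf2l1 and Creld2, and so they did in one direction or the other for 4.03% of all genes.

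Creld2, a secreted ER stress marker that is among the most responsive targets of the pathway, varied most between animals. In wild type on day 1 the controls stood at 8.93, 9.11, 9.24, 9.82 and 9.97 and the treated livers at 9.67, 9.78, 10.10, 10.27 and 11.34, a difference of 0.82 ± 0.349 (adjusted p = 0.114). In the knock-out on day 14 the controls stood at 9.02, 9.35, 9.57 and 10.10 and the treated livers at 10.19, 10.23, 10.24, 10.41 and 10.74, a difference of 0.85 ± 0.370 (adjusted p = 0.323) with no overlap. The humanized difference was −0.57 on day 28 (adjusted p = 0.398), in the other direction. The dosing-day means of Creld2 were 0.24 in wild type (95% interval −0.08 to 0.57), 0.18 in the knock-out (−0.14 to 0.51) and −0.08 in humanized livers (−0.39 to 0.24), intervals wider than those of Hspa5.

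Sdf2l1, a partner of Hspa5 in the ER lumen, and Dnajb9 (ERdj4), the cochaperone that represses Ire1, were likewise not called. The dosing-day means of Sdf2l1 were 0.15 ± 0.104, 0.19 ± 0.104 and −0.09 ± 0.102. Sdf2l1 on day 14 stood at 9.11 to 9.42 in wild-type controls and 9.42 to 10.09 in treated livers without overlap, and at 8.65 to 9.23 and 9.32 to 9.68 in the knock-out, also without overlap. These differences were 0.42 (adjusted p = 0.278) and 0.56 (adjusted p = 0.305). On day 14 arms without overlap, in either direction, were found for 8.98% of all genes in wild type and 4.03% in the knock-out. The dosing-day means of Dnajb9 were −0.01 (95% interval −0.19 to 0.17), 0.01 (−0.17 to 0.19) and −0.05 (−0.23 to 0.13).

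**Figure D3:**
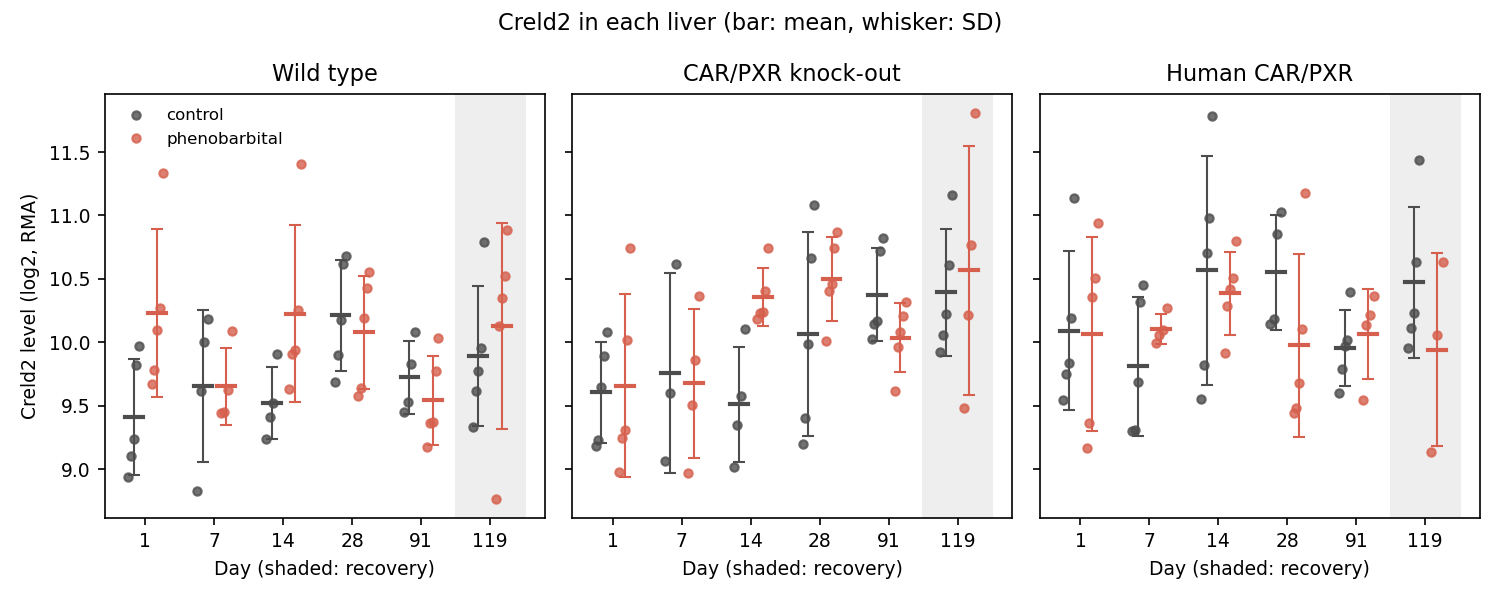
Creld2 log2 level (RMA) in each liver by day, with control and phenobarbital points and the group mean ± SD, in wild type, knock-out and humanized mice; the shaded day 119 is recovery. The points of a group spread widely, from 8.77 to 11.81 over all livers, and the 2 arms overlap in every comparison but the knock-out on day 14.

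Baseline levels of several members differed with the genotype in control livers. Herpud1 was 0.32 log2 units higher in knock-out than in wild-type controls (adjusted p = 0.00701) and 0.45 higher in humanized controls (adjusted p = 3.73e-05). Xbp1 was 0.18 lower in knock-out controls (−0.18, adjusted p = 0.000195). In humanized controls Creld2 was 0.51 ± 0.148 higher (adjusted p = 0.00571), Dnajb9 0.24 higher (adjusted p = 0.0200) and Atf4 0.20 lower (−0.20, adjusted p = 4.75e-05). Thus 2 of 10 members were called between knock-out and wild-type controls, where 22.4% of all genes were, and 4 of 10 between humanized and wild-type controls, where 28.1% were. Without the samples high in acinar markers the Dnajb9 value was 0.26 (adjusted p = 0.0529).

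Control levels were also compared between the days, in animals that never received the drug. Of the 10 members only Ddit3 in the knock-out was called in limma's F test over the 6 control days (adjusted p = 0.0103), with day means from 7.02 on day 14 to 8.03 on day 91. The 5 knock-out controls of day 91 stood at 7.74, 7.92, 8.00, 8.03 and 8.47, all above the 4 of day 14. At an unadjusted p under 0.05 there were 2, 3 and 2 members in wild type, knock-out and humanized controls. In this F test 12.2%, 9.84% and 6.81% of all genes were called in wild type, knock-out and humanized controls. Day, age and the date of killing cannot be told apart.

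The members differed widely in how far they spread between animals of the same group. The within-group SD on the log2 scale was 0.559 for Creld2, more than for 99.1% of all genes tested, followed by 0.354 for Sdf2l1, 0.343 for Herpud1, 0.342 for Ddit3 and 0.310 for Dnajb9. It was 0.180 for Hyou1, 0.168 for Pdia4, 0.155 for Atf4, 0.154 for Hspa5 and 0.145 for Xbp1, against a median of 0.131 over all genes tested. Over all samples Creld2 spanned an 8.23-fold range, Herpud1 5.87-fold, Sdf2l1 5.41-fold, Ddit3 4.22-fold and Dnajb9 3.26-fold. The range was 2.32-fold for Pdia4, 2.08-fold for Hspa5, 2.07-fold for Xbp1 and 1.97-fold for Atf4 and Hyou1. The largest dosing-day mean was 2.24 times the within-group SD for Herpud1, 1.28 times for Xbp1 and 1.22 times for Pdia4.

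Much of this spread was shared between the members. The deviation of each of 166 samples from its group mean was correlated between all 45 pairs of members, and the Pearson r was above 0 in all 45, with a median of 0.614. Hspa5 and Creld2 moved most closely (Pearson r = 0.950, Spearman rho = 0.948, permutation p = 1e-05 for each, the smallest that 100000 resamples can give, adjusted p over the 45 pairs 1.6e-05 and 1.7e-05). Without the 2 samples farthest from the Hspa5 median the r of this pair was 0.948. Sdf2l1 and Creld2 followed with r = 0.903 and rho = 0.894, and Hspa5 and Sdf2l1 with r = 0.891 and rho = 0.875, each with the same p and adjusted p. The points share their normalization, and over all pairs of genes tested the median r was 0.0038, with 0.438% of pairs over 0.5 against 26 of the 45.

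Not every member joined in to the same degree. Against the mean of the standardised deviations of the other 9 members, Creld2 had r = 0.921, Hspa5 0.908, Sdf2l1 0.877, Dnajb9 0.825, Pdia4 0.717, Hyou1 0.683, Herpud1 0.682 and Ddit3 0.669. The lowest were Atf4 with 0.317 and Xbp1 with 0.261, both regulators and not chaperones, while Ddit3, a regulator too, had 0.669. No correlation was detectable within groups between Xbp1 and Herpud1 (r = 0.049, rho = 0.028, permutation p = 0.600 and 0.751, adjusted p = 0.614 and 0.768), or between Ddit3 and Xbp1 (r = 0.018, rho = 0.024, permutation p = 0.841 and 0.787, adjusted p = 0.841 and 0.787). Within the 6 arms of genotype and treatment (26 to 29 samples) the median r over the pairs ran from 0.438 in wild-type controls to 0.659 in humanized controls. The median was thus positive in treated and untreated livers alike, but single pairs were not always so. In wild-type controls 37 of 45 pairs were above 0 (lowest r −0.319), and in humanized controls 39 (lowest r −0.334). The other arms had 43 to 45 pairs above 0.

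**Figure D4:**
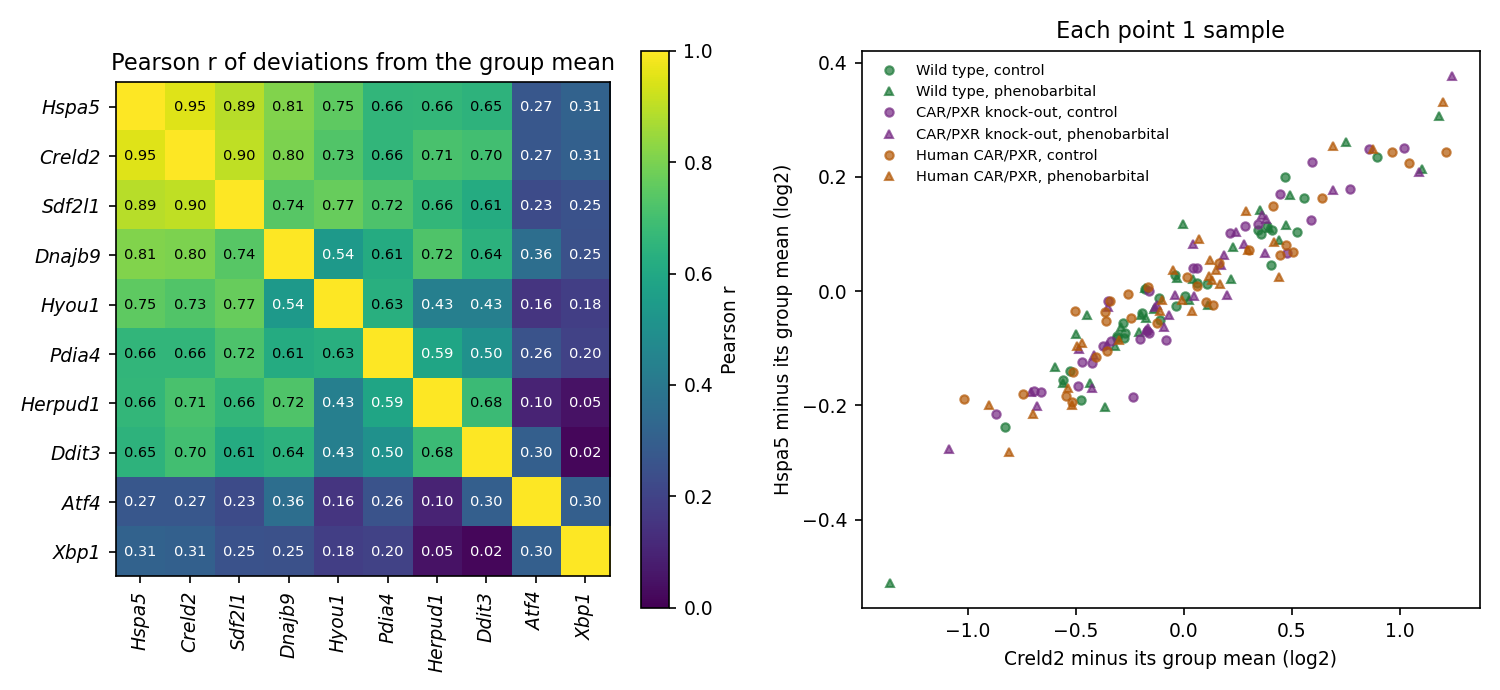
Left, Pearson r between members of the deviations from the group mean over 166 samples; right, the deviation of Hspa5 against that of Creld2 (both log2), with 1 point a sample coloured by genotype and marked by treatment. Hspa5, Creld2, Sdf2l1 and Dnajb9 form the block of highest r, Atf4 and Xbp1 the lowest, and the points of all 6 arms lie along 1 line (r = 0.950).

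Single animals held the extremes of several chaperones at once. Animal 2028, a wild-type mouse that had received phenobarbital and was taken on day 119, had the lowest levels of all samples for Hspa5 (12.96), Sdf2l1 (8.09), Creld2 (8.77) and Hyou1 (9.52). Animal 4028, a knock-out mouse of the same arm and day, had the highest for Hspa5 (14.02), Sdf2l1 (10.52), Creld2 (11.81), Pdia4 (10.93) and Hyou1 (10.50). Acinar markers had r from −0.09 to 0.12 with the members within groups, with a median of 0.023 over the 10. Without the 29 samples high in them the median r over the pairs was 0.582, and 44 of 45 pairs stayed above 0. Hepatocyte markers followed the members with a median r of 0.346 (Pdia4 0.567, Herpud1 0.514, Xbp1 0.044), and genes that rise with fasting with a median of −0.218 (Xbp1 −0.431, Herpud1 0.116). For genes of feeding and lipid synthesis the median r was −0.100 (Herpud1 −0.329, Pdia4 −0.265, Atf4 0.311). The part of these in the shared spread was not tested.

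The genes outside the 10 that followed their mean deviation most closely over the 166 samples included 4 of the wider ER lists, Syvn1, Manf, Dnajb11 and Sel1l, and 4 of none of the lists. They were Syvn1 (r = 0.938), the Hrd1 ubiquitin ligase, Manf (0.909), a secreted ER stress factor, Piga (0.891), an enzyme of GPI anchor synthesis, Dnajb11 (0.886), an Hspa5 cochaperone, Sel1l (0.878), the partner of Hrd1, Atp2a2 (0.855), the ER calcium pump, Slc30a5 (0.855), a zinc transporter, and Nktr (0.832). Under phenobarbital Syvn1 was not called (−0.17, 0.11 and −0.19 in wild type, knock-out and humanized livers). Manf rose in the knock-out (0.25, adjusted p = 0.0228), and Piga (−0.38, adjusted p = 0.000214) and Nktr (−0.15, adjusted p = 0.0143) fell in humanized livers. The other 4 were called in no genotype.

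In the dosing-day means, 31.5%, 19.6% and 32.4% of all genes tested were called in wild type, knock-out and humanized livers. By direction, 11.8%, 8.64% and 14.9% were called higher and 19.7%, 11% and 17.5% lower. The counts of the wider lists stand beside those shares. Of 15 tested sensors and regulators of the unfolded protein response, 1 was called higher and 2 lower in wild type, 2 and 2 in the knock-out, and 3 and 4 in humanized livers. Ern1, which codes for Ire1, rose by 0.16 in wild type (adjusted p = 0.00175) and humanized livers (adjusted p = 0.00153), and Crebzf fell by 0.12, 0.13 and 0.15 in wild type, knock-out and humanized livers. Of 29 ER chaperones and foldases other than the members, 7 were higher and 3 lower in wild type, 3 and 3 in the knock-out, and 5 and 6 in humanized livers, with medians of 0.010, 0.008 and −0.017. The sulfhydryl oxidase Qsox1 fell by 0.33 in wild type and 0.28 in humanized livers, and the oxidoreductase Tmx1 rose by 0.19 and 0.14 there but fell by 0.07 in the knock-out.

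Of 24 other genes of ER-associated degradation, the process in which Herpud1 acts, 5 were higher and 2 lower in wild type, 1 and 2 in the knock-out, and 4 and 4 in humanized livers. Derl1, a channel protein of this process, rose by 0.14 in wild type and 0.12 in humanized livers, while the ubiquitin conjugating enzyme Ube2j2 fell by 0.09, 0.09 and 0.14 in wild type, knock-out and humanized livers. Herpud2, the paralog of Herpud1, fell by 0.14 in the knock-out and 0.09 in humanized livers. The largest of these falls was 0.14 on the log2 scale, against 0.43 to 0.77 for Herpud1.

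Genes of protein import, glycosylation and vesicle traffic in the ER moved mostly upwards in wild type. Of 35 tested, 22 were higher and 2 lower there, 6 and 1 in the knock-out, and 12 and 3 in humanized livers. The shares of all genes called higher were 11.8%, 8.64% and 14.9%. The medians of the list were 0.084, 0.044 and 0.054 against −0.013, 0.008 and −0.002 for all genes. Spcs3, a subunit of the signal peptidase, rose by 0.18 in wild type (adjusted p = 1.66e-09), and Stt3a, the catalytic subunit of the oligosaccharyltransferase, by 0.18 in wild type and in humanized livers. Sec62, of the import channel, fell by 0.09, 0.11 and 0.10 in wild type, knock-out and humanized livers. The difference between genotypes was called, in the downward direction, for 6 of the 35 in knock-out minus wild type and for 2 in humanized minus wild type. Of all genes tested, 5.77% and 0.776% were called in that direction in these contrasts.

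Of 28 tested targets of Atf4 and Ddit3, 6 were higher and 6 lower in wild type, 7 and 3 in the knock-out, and 6 and 4 in humanized livers. Among all genes tested, 11.8%, 8.64% and 14.9% were called higher and 19.7%, 11% and 17.5% lower in wild type, knock-out and humanized livers. Stbd1, a glycogen binding protein, rose by 1.02 in wild type and 0.26 in humanized livers, and the pseudokinase Trib3 by 0.80 in wild type, while Chac1, which degrades glutathione, fell by 0.40 in the knock-out and 0.28 in humanized livers. Heat shock proteins and their cofactors were mostly of the cytosol, but the list held the mitochondrial Hspd1, Hspe1 and Hspa9. In the dosing-day means of wild type, knock-out and humanized livers, 5, 8 and 9 of 21 of these heat shock genes were called higher. The shares of all genes called higher there were 11.8%, 8.64% and 14.9%. No heat shock gene was called lower (0 also at limma's unadjusted p under 0.05). Their medians were 0.070, 0.151 and 0.153, with Hsp90aa1 up by 0.24 in wild type and 0.29 in humanized livers. Genes that rise with fasting were called lower in 6, 5 and 5 of 10 cases and higher in 0, 0 and 1, with medians of −0.30, −0.21 and −0.43, and their part in the Herpud1 fall was not tested. Of 11 genes of feeding and lipid synthesis 2, 3 and 4 were called higher and 1, 0 and 0 lower, with Thrsp, a lipogenic regulator, up by 0.75 in wild type and 0.50 in humanized livers and Fasn, the fatty acid synthase, up by 0.66 in the knock-out. Of 17 clock genes 0, 1 and 1 were called higher and 3, 2 and 4 lower, and Per1 fell by 0.29, 0.47 and 0.50 in wild type, knock-out and humanized livers. The part of feeding and clock genes in the Herpud1 fall was likewise not tested.

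**Figure D5:**
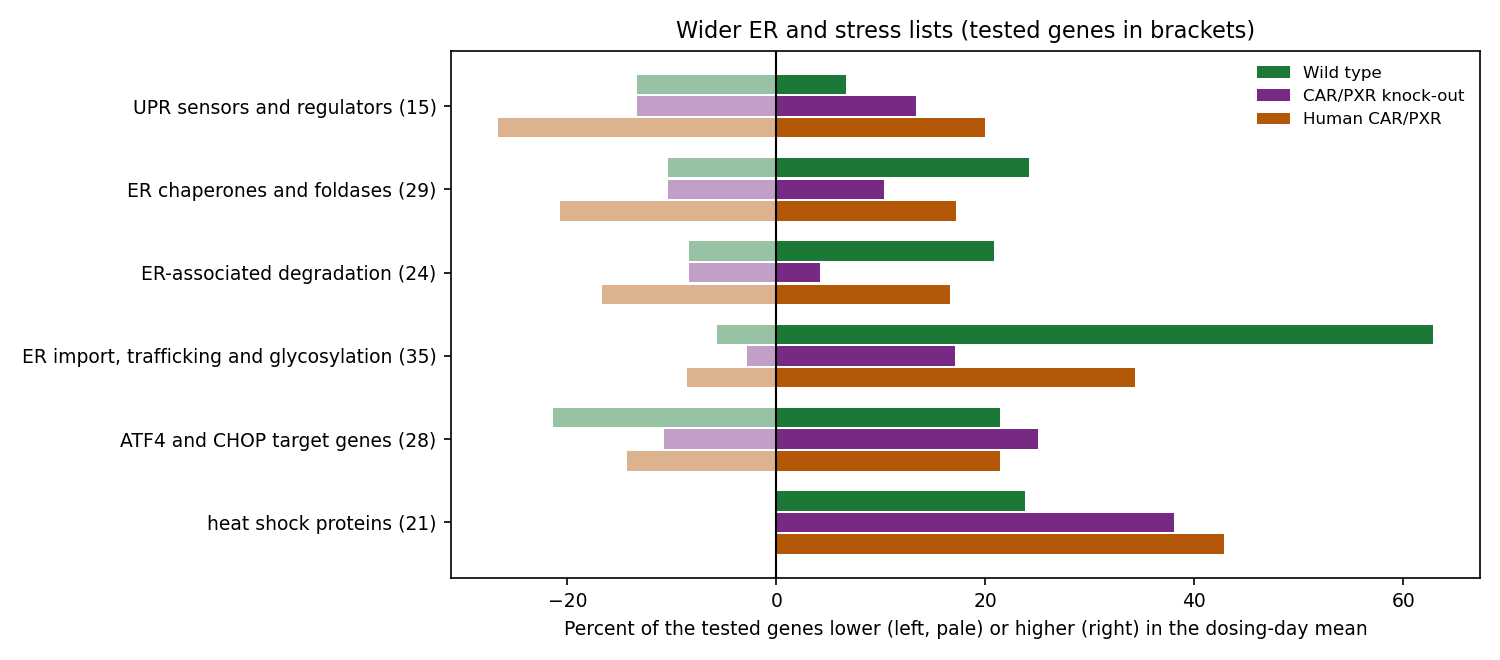
Percent of the tested genes of each wider list (rows, number tested in brackets) called higher (right) or lower (left, pale) in the dosing-day mean of each genotype. ER import, trafficking and glycosylation has 22 of 35 genes higher in wild type, against 11.8% of all genes tested. Heat shock proteins have 0 lower in all 3 genotypes, against 19.7%, 11% and 17.5% of all genes in wild type, knock-out and humanized livers.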

How the data were processed

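The authors deposited log2 expression values per probe set, made with RMA per the submitters' processing notes. The version of RMA, and whether it took all arrays in 1 run, is not given in the sources used here. RMA adjusts background, equalises array distributions and is known to compress differences of dim and very bright probes. Of 45101 probe sets, 34958 carried 1 gene symbol, 932 several and 9211 none; single-symbol sets gave 18194 genes, each read from its set with the highest mean. Genes were tested where the value exceeded the array median on at least 3 arrays, which kept 12623. All 36 group means were fitted in 1 model with limma 3.58.1 (R 4.3.3, 130 residual degrees of freedom) on 166 samples, and contrasts were tested two-sided with Benjamini-Hochberg adjustment within each contrast over all genes tested, called at 0.05; ± is the standard error. The 5 dosing days were weighted equally. Arrays carry no read depth, and the number of animals per group limits the precision. Fitting was tested on simulated data. Members, lists and tests were chosen with earlier results of these data known. Named genes are the members, the drug readouts, up to 3 called genes with the largest rise and 3 with the largest fall per list and dosing-day mean, and the 8 genes most like the members. Alternatives were quantile normalization, no filter, the mean of all probe sets, an intensity trend with a robust prior, near-identical arrays kept or left out, only the compared groups, the acinar mean as a covariate, samples with high acinar markers left out, and each animal left out in turn. Promoters came from RefSeq.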

Additional observations from a re-analysis of the deposited data

Results flagged for a closer look

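In 18 of 340 combinations of a member and a group of 4 or 5 livers, 1 animal lay far from the rest (Dixon's criterion at 95%). Chance flags about 5% of such combinations, which are not independent, as members varied together within groups. Animal 2012, a wild-type mouse on phenobarbital taken on day 14, was high for Hspa5 (13.81, the others from 13.37 to 13.49), Ddit3 (8.23) and Xbp1 (12.44). Animal 2028, a wild-type mouse of the former phenobarbital arm on day 119, was low for Dnajb9 (10.69) and Sdf2l1 (8.09). Animal 5005, a humanized control of day 1, was high for Ddit3 (8.06) and Pdia4 (10.51).

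For Ddit3, the other flagged animals were 2007 (6.71, wild type on phenobarbital, day 7, low), 5025 (7.60, humanized control, day 91) and 6021 (8.01, humanized on phenobarbital, day 91). For Xbp1 they were 2002 (12.66, wild type on phenobarbital, day 1) and 1020 (12.86, wild-type control, day 28). Dnajb9 was high in 4001 (11.25, knock-out on phenobarbital, day 1) and Herpud1 in 5028 (12.50, humanized control, day 119). Sdf2l1 was high in 1030 (9.67, wild-type control, day 119) and low in 6011 (8.95, humanized on phenobarbital, day 14). Hyou1 was high in 1003 (10.20, wild-type control, day 1) and 4010 (10.11, knock-out on phenobarbital, day 7).

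Herpud1 was called as differing between time points in wild type, where its phenobarbital effect was 0.77 log2 units higher on day 119 than in the dosing-day mean (limma interaction contrast, adjusted p = 0.0441). That call was lost under 4 of 9 alternatives and without any 1 of 18 animals.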

How the results depend on the processing

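Of 2880 values of single genes under 9 alternatives, 2845 kept their direction and side of the threshold, 22 lost a call, 13 gained one and 0 reversed; 267 of 289 values of the 32 counts of members called, and of their co-variation, were unchanged within 1.5 times. With the mean of all probe sets the number of members called was 0 in wild type on day 1, 1 on day 14, 0 for day 119 against the dosing mean, 1 in the knock-out on day 1, 0 on day 28 and 1 in its mean. Without the samples high in acinar markers it was 0 in wild type on day 1 (with 1 control left, which says little) and on day 14 and for day 119 against the dosing mean, 1 in the wild-type and knock-out means, 1 in humanized livers on day 7 and 1 in humanized minus knock-out. With only the compared groups it was 2 in wild type on day 1, 1 in the knock-out mean, and 0, 1 and 0 in humanized livers on days 1, 7 and 28. No filter gave 1 in the knock-out mean and 0 for wild-type day 119 against the dosing mean, which was also 0 with quantile normalization, and leaving out the near-identical arrays of unlike labels gave 1 in the knock-out mean. Fewer samples remain where arrays are left out; otherwise the cause was not tested.

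Leaving out each animal gave 0 to 1 members called in wild type on days 1 and 28 and for day 119 against the dosing mean, 0 to 2 on day 14, 0 to 2 in the knock-out on day 1, 1 to 2 in humanized livers on days 14 and 28, 2 to 4 in the wild-type mean, 1 to 3 in the knock-out mean and 0 to 2 in humanized minus knock-out, and reversed no direction. In controls it gave 2 to 3 for knock-out and 4 to 6 for humanized against wild type. The animals that moved a count by over 1.5 times, beside those already named, were 3005 and 4004 (knock-out, day 1), 6015 (humanized, day 14), and 3010, 3014, 3016, 6003 and 6020 (humanized minus knock-out). For the Herpud1 change to day 119 in wild type they were 1003, 1006, 1014, 1023, 1026, 1027, 1028, 1029, 2004, 2007, 2011, 2017, 2019, 2024, 2026, 2027, 2029 and 2030. The knock-out Hyou1 call was lost without 3001, 3003, 3004, 3007, 3009, 3011, 3014, 3018, 3019, 3022, 3023, 3024, 4001, 4003, 4004, 4007, 4010, 4011, 4012, 4013, 4016, 4018, 4020, 4021, 4023 or 4024, all but 4021 of which moved the count; over all animals left out, its value ran from 0.12 to 0.16, and from 0.12 to 0.14 where the call was lost. No paired analysis was possible because the animal numbers are not shared between groups. Groups of 3 to 5 animals limit single days most, above all for Creld2, whose within-group SD was 0.559.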
